A study of Arabidopsis thaliana with 16 samples.

Results

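In Arabidopsis roots, 40 of 33518 loci were expressed in the wild type, nearly silent in the root hair mutant rhd6rsl1, and still below 5% of the wild-type level after the mutant had been given ethylene. They encode the transcription factor RSL2, an abundant extensin, 3 peroxidases, a xyloglucan-modifying enzyme, transporters, protein kinases, glutathione transferases and other proteins. The members were chosen by their values. Reads of all transcript models were summed to the locus, scaled to counts per 1000000 reads of the library (CPM) and averaged over the 2 libraries of a group. A locus was kept if untreated Col-0 had at least 5 CPM, untreated rhd6rsl1 at most 5% of that level, and ethylene-treated rhd6rsl1 less than 5% of it. Of 15362 loci at 5 CPM or more in untreated Col-0, 140 were at or below 5% in untreated rhd6rsl1, and 100 of these stood at 5% or more with ethylene and 40 did not.

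The study asked how the transcription factors EIN3/EIL1 and RHD6/RSL1 act together when ethylene promotes growth of root hairs. Seedlings of 4 genotypes, the wild type Col-0, ein3eil1, rhd6rsl1 and the quadruple mutant ein3eil1rhd6rsl1, stood upright on MS medium for 6 d, after which they received ethylene at 10 ppm for 4 h or no ethylene. Each of the 8 groups had 2 replicates that the submitters call biological, giving 16 libraries of polyadenylated RNA from whole roots. The labels do not name the alleles or say how many seedlings were pooled.

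Root hairs are tip-growing outgrowths of epidermal cells. RHD6 and RSL1 are related basic helix-loop-helix (bHLH) transcription factors that act early in hair cell development, and they are known to act upstream of RSL2 and RSL4, which promote hair elongation. EIN3 and EIL1 carry the transcriptional response to ethylene, a gaseous hormone that promotes root hair formation and growth. Extensins, peroxidases and xyloglucan endotransglucosylases build, cross-link and remodel the cell wall of the growing hair.

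**Figure D1:**
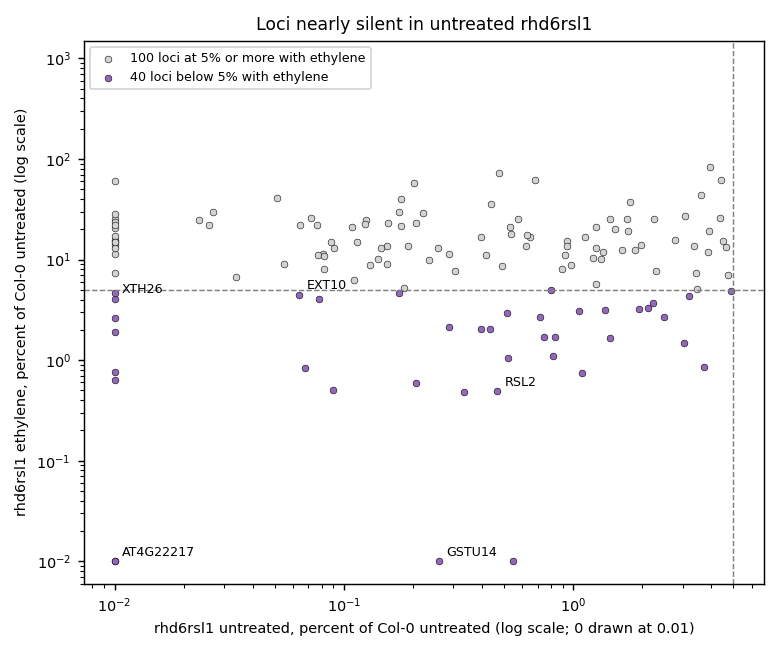
Level of the 140 loci nearly silent in untreated rhd6rsl1, as a percent of untreated Col-0 on log axes, in untreated rhd6rsl1 (horizontal axis) and in ethylene-treated rhd6rsl1 (vertical axis). Each point is 1 locus and the 40 members lie below the 5% line, the highest at 4.95%, while the other 100 lie above it.

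In units of 1000000 reads, library totals ran from 33.0 to 45.0, so that 3 reads, the limit a count of 0 allows, stand for 0.0667 to 0.0910 CPM. Intervals and limits cover counting error only. EIN3 stood at 28.0 to 41.8 CPM in the 8 libraries with the ein3eil1 genotype and at 144.7 to 185 CPM in the others, and EIL1 at 12.1 to 29.4 against 60.8 to 79.1 CPM. RHD6 and RSL1 transcripts overlapped between mutant and other libraries, at 6.33 to 15.8 against 14.4 to 24.0 CPM for RHD6 and at 1.26 to 2.01 against 1.11 to 5.91 CPM for RSL1. The overlap came from ethylene-treated Col-0 and, for RHD6, also from ethylene-treated rhd6rsl1. In untreated roots RHD6 had 6.33 to 7.92 CPM in the mutants against 20.8 to 24.0 CPM, and RSL1 1.86 to 2.01 against 5.72 to 5.91 CPM. With ethylene, rhd6rsl1 had 15.5 and 15.8 CPM of RHD6, between both Col-0 replicates, and Col-0 and rhd6rsl1 had 1.11 and 1.77 against 1.83 and 1.26 CPM of RSL1, so there the transcript level does not check the label. The column headers carry file codes that differ by set: untreated rhd6rsl1, the untreated quadruple mutant, ethylene-treated Col-0 and ethylene-treated ein3eil1 have one code and the other 4 groups another. What the codes mean is not given, and within each genotype treatment and code cannot be told apart. Over 8 endodermis markers, none of them at 0, the sum was 369 to 746 CPM, and 2 pollen genes summed to 0 to 0.161 CPM. Summed over 8 shoot genes of photosynthesis, replicate 1 of the ethylene-treated quadruple mutant had 1174 CPM and replicate 1 of ethylene-treated Col-0 had 687 CPM, against 103 to 218 CPM in the other 14 libraries. In whole roots, fewer hair cells and less RNA per hair cell cannot be told apart.

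Values next to the limits of the rule are given as a description. AT2G37370, at 4.86% of Col-0 in untreated rhd6rsl1, was just inside, and the locus AT4G22214, at 5.65%, just outside. In rhd6rsl1 the AT2G37370 replicates lay apart, at 0.391 and 0.205 CPM untreated and 0 and 0.599 CPM with ethylene. Its means in the quadruple mutant were 5.85% of untreated Col-0 untreated and 8.32% with ethylene. With ethylene the amino acid transporter AT1G48640, at 4.95%, was just inside, while AT1G51870, at 5.07%, and AGP3, an arabinogalactan protein at 5.22%, were just outside. For AGP3 that share was 13.5 CPM in ethylene-treated rhd6rsl1, of 258 CPM in untreated Col-0. The protein kinase AT5G18910 met the lower limit in Col-0 with 5.01 CPM and AT5G26080, at 4.96 CPM, missed it.

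A root hair element, the bipartite motif known from promoters of root hair genes and bound by RSL4, was searched on both strands from 250 bases before to 50 bases after the annotated gene start (RefSeq, TAIR10.1). It was found in 3 of the 40 windows, and those sites are shown as the only matches among the members; the other 37 windows held none. Each is written 5′ to 3′ on the strand of its gene, with the match in capitals and 10 flanking bases on either side in lower case.
ABCA3: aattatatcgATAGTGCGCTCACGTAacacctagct
G3Pp2: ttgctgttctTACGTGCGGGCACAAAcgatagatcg
RHS16: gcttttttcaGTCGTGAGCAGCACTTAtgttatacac
All 3 genes lie on the forward strand, ABCA3 on chromosome 3 and the other pair on chromosome 4. The match of ABCA3 lay from base -180 to -165 relative to the start, on the strand of the gene. The matches of G3Pp2, from -106 to -91, and of RHS16, from -11 to 6, read on the opposite strand. The element was present in 7.50% of members' windows, in 18% of those of the 100 restored loci, in 0.893% of windows of tested loci and in 0.810% of 32708 windows in all. The E-box core CACGTG, each match of which is also a CANNTG match, occurred in 5% of members' windows, 3% of restored loci's and 6.92% of all windows. CANNTG occurred in 50% of members', 56% of restored loci's and 62.5% of all windows.

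The 40 loci were low in every group with the rhd6rsl1 genotype. In ein3eil1 most stood at or above 50% of untreated Col-0, 30 of 40 members untreated and 39 of 40 with ethylene. Set against ethylene-treated Col-0 instead, ethylene-treated ein3eil1 had a median log2 fold change of -0.66 over the members. There 20 of 40 were called lower and 7 higher. Relative to untreated Col-0, the median member stood at 133% in ethylene-treated Col-0 (range 33.3 to 828%), at 61.4% in untreated ein3eil1 (4.27 to 122%) and at 81.4% in ethylene-treated ein3eil1 (28.6 to 164%). In untreated rhd6rsl1 the median was 0.491% and in ethylene-treated rhd6rsl1 1.96%, both held low by the rule. The quadruple mutant, which the rule did not read, had a median of 0.365% untreated (0 to 5.85%) and 1.02% with ethylene (0 to 8.32%). By replicate its median was 0.176% and 0.469% untreated, and 1.58% and 0.415% with ethylene. There, 39 of 40 members untreated and 38 of 40 with ethylene were at or below 5% of untreated Col-0.

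**Figure D2:**
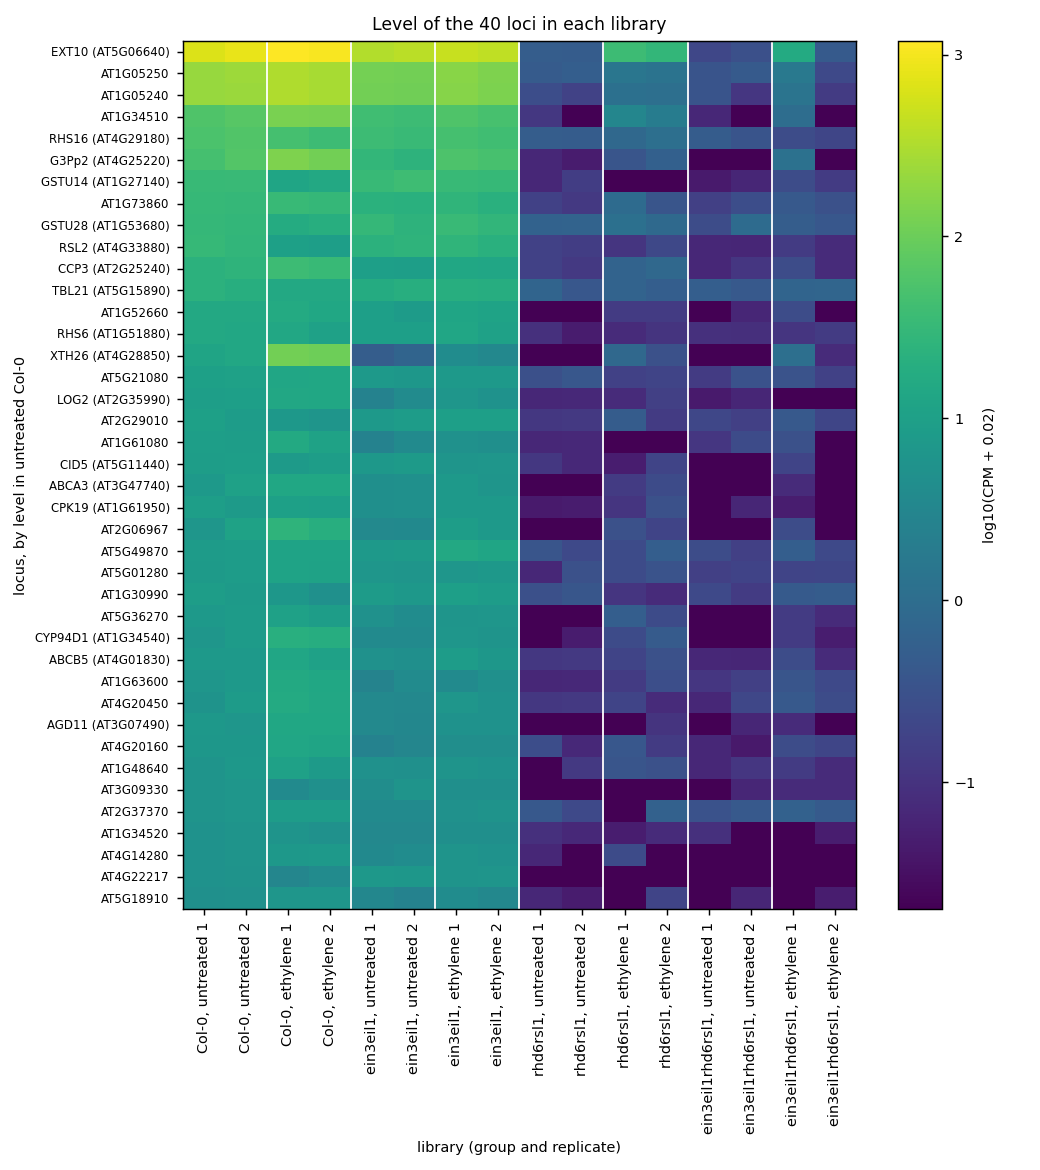
Level of each of the 40 loci (rows, ordered by level in untreated Col-0) in each of the 16 libraries (columns), as log10 of CPM plus 0.02. The 8 libraries of Col-0 and ein3eil1 hold high values in nearly every row and the 8 libraries of rhd6rsl1 and the quadruple mutant low ones, with EXT10 in ethylene-treated rhd6rsl1 (37.7 and 28.8 CPM) as the highest value among the latter.

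**Figure D3:**
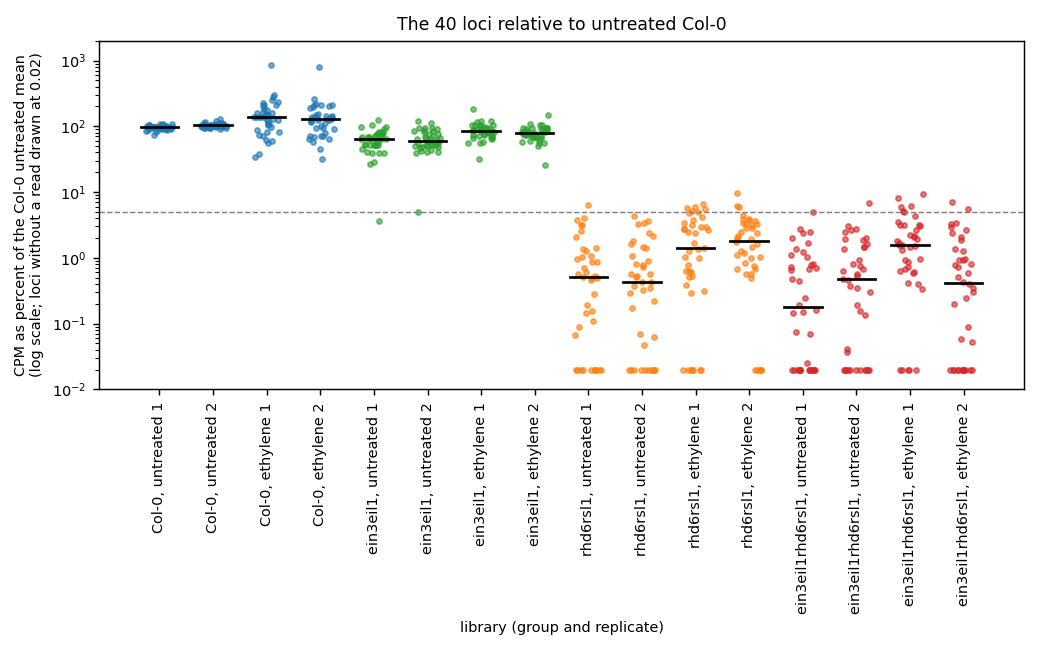
CPM of the 40 loci in each library as a percent of the mean of untreated Col-0, on a log axis, 1 point per locus, with loci without a read drawn at 0.02 and the 5% limit dashed. Between 5 and 14 of the 40 loci had no read in a library of rhd6rsl1 or the quadruple mutant, and every locus had reads in each library of Col-0 and ein3eil1.

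RSL2 was the only transcription factor among the members. Its level was 31.1 and 27.7 CPM in untreated Col-0, 10.2 and 9.41 CPM when treated, 23.1 and 25.2 CPM in untreated ein3eil1 and 26.7 and 21.8 CPM in ethylene-treated ein3eil1. In rhd6rsl1 it had 0.147 and 0.128 CPM untreated and 0.087 and 0.2 CPM with ethylene, and in the quadruple mutant 0.0468 and 0.0459 CPM untreated and 0.116 and 0.0585 CPM with ethylene. All 8 libraries with the rhd6rsl1 genotype were thus far below all others, and ethylene-treated Col-0 was the only group with RHD6/RSL1 in which RSL2 was low, at 33.3% of untreated Col-0. RSL4, another elongation factor of this family, was restored and is no member. In rhd6rsl1 the mean of RSL4 was 0.0768 CPM untreated and 11.8 CPM treated, beside 16.2 and 43.9 CPM for Col-0. RSL3 (AT2G14760), of the same family, is no member only because its 4.54 CPM in untreated Col-0 missed the 5 CPM limit. It stood at 0.821% of that level in untreated rhd6rsl1, 0.948% in ethylene-treated rhd6rsl1 and 35.6% in ethylene-treated Col-0.

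EXT10, an extensin of the cell wall, took the most reads of any member, without correction for transcript length. Its level was 661 and 822 CPM in untreated Col-0, 1191 and 1078 CPM with ethylene, 339.8 and 379 CPM in untreated ein3eil1 and 474 and 422 CPM in ethylene-treated ein3eil1. In rhd6rsl1 it had 0.489 and 0.461 CPM untreated and 37.7 and 28.8 CPM with ethylene, a ratio of means of 70.0, which still came to only 4.48% of untreated Col-0. EXT10 was thus a member because that level was a small share of the wild-type level, and not because treated and untreated rhd6rsl1 were alike. The quadruple mutant had 0.187 and 0.275 CPM untreated and 16.4 and 0.438 CPM with ethylene, and the latter pair lay far apart. The closest other transcript, that of AT4G08410, aligned to 89.8% of the EXT10 transcript at 86.0% identity. AT4G08410 was a restored locus, at 21.0% in ethylene-treated rhd6rsl1. How reads shared between such loci were counted is not given. The hydroxyproline-rich glycoprotein AT1G61080 had 9.29 and 9.08 CPM in untreated Col-0, 16.2 and 11.1 CPM with ethylene, 2.61 and 3.89 CPM in untreated ein3eil1 and 5.1 and 4.68 CPM in ethylene-treated ein3eil1. In the 8 libraries of rhd6rsl1 and the quadruple mutant, hereafter the 8 rhd6rsl1-type libraries, it was between 0 and 0.291 CPM, with a median of 0.0501 CPM.

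The 3 peroxidases belong to a class of wall and apoplast enzymes that use hydrogen peroxide. AT1G05250 had 218 and 242 CPM in untreated Col-0, 322 and 288 CPM with ethylene, 121 and 114 CPM in untreated ein3eil1 and 170.2 and 144 CPM in ethylene-treated ein3eil1, and was between 0.205 and 1.66 CPM, with a median of 0.476 CPM, in the 8 rhd6rsl1-type libraries. AT1G05240 had 214 and 231 CPM untreated and 315 and 283 CPM treated in Col-0 and 116 and 111 CPM untreated and 161 and 134 CPM treated in ein3eil1. Their values are not independent: the whole 1492-base RefSeq transcript of AT1G05250 matches 60.2% of the 2478-base transcript of AT1G05240 with 100% identity, so reads from that stretch cannot be assigned by sequence, and how they were counted is not given. AT1G34510 had 56.8 and 68.1 CPM in untreated Col-0, 132 and 126 CPM with ethylene, 40.3 and 37.4 CPM in untreated ein3eil1 and 56.9 and 49.2 CPM in ethylene-treated ein3eil1. In rhd6rsl1 it had 0.0978 and 0 CPM untreated and 3.05 and 2 CPM with ethylene, non-overlapping but small beside the wild type.

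XTH26, a xyloglucan endotransglucosylase/hydrolase that remodels the wall, differed most with EIN3/EIL1. Col-0 had 12.2 and 14.7 CPM untreated and 116 and 107 CPM with ethylene, the highest ratio of the 40 members at 828% of untreated. In ein3eil1 it was 0.485 and 0.667 CPM untreated and 4.27 and 3.44 CPM with ethylene. In rhd6rsl1 no read was found untreated, and 0.812 and 0.285 CPM with ethylene. The quadruple mutant had no read untreated and 1.08 and 0.0585 CPM with ethylene. XTH26 was the only member below 5% of untreated Col-0 in untreated ein3eil1. TBL21, of a family of wall polysaccharide acetyltransferases, differed little between ein3eil1 and untreated Col-0, at 23 and 19.9 CPM untreated and 15 and 15.2 CPM treated in Col-0 and 17 and 19.6 CPM untreated and 19.5 and 19.3 CPM treated in ein3eil1, and was between 0.384 and 0.701 CPM, with a median of 0.577 CPM, in the 8 rhd6rsl1-type libraries.

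Of the root hair specific (RHS) genes, named for expression in hairs, RHS16, RHS6 and G3Pp2 (RHS15) were members. RHS16, annotated with kinase activity, had 54 and 60.4 CPM in untreated Col-0, 46.6 and 37.2 CPM with ethylene, 37.1 and 35 CPM in untreated ein3eil1 and 46 and 41.4 CPM in ethylene-treated ein3eil1. In rhd6rsl1 it had 0.489 and 0.461 CPM untreated and 0.812 and 1.11 CPM with ethylene. RHS6, also annotated with kinase activity, had 15 and 14.7 CPM untreated and 14.3 and 10.7 CPM treated in Col-0, 10.1 and 9.89 CPM untreated and 13.5 and 10.9 CPM treated in ein3eil1, and was between 0.0256 and 0.117 CPM, with a median of 0.0718 CPM, in the 8 rhd6rsl1-type libraries. Both were thus slightly lower, not higher, in ethylene-treated Col-0. G3Pp2, a glycerol-3-phosphate permease, went the other way, with 47.5 and 62.6 CPM in untreated Col-0, 139.8 and 116 CPM with ethylene, 28.7 and 24.2 CPM in untreated ein3eil1 and 55.5 and 48.2 CPM in ethylene-treated ein3eil1. Its rhd6rsl1 values were 0.0489 and 0.0256 CPM untreated and 0.348 and 0.571 CPM with ethylene.

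The other 4 transporters are of the ATP-binding cassette and amino acid families. ABCA3, an ATP-binding cassette transporter, had 7.58 and 10.6 CPM untreated and 14.2 and 13.9 CPM treated in Col-0 and 4.73 and 4.98 CPM untreated and 7.37 and 6.29 CPM treated in ein3eil1. No read was found in either untreated rhd6rsl1 library or either untreated quadruple mutant library, and the highest rhd6rsl1-type value was 0.228 CPM. ABCB5, of the same superfamily, had 7.29 and 7.25 CPM untreated and 13.4 and 10.9 CPM treated in Col-0 and 5.19 and 4.78 CPM untreated and 8.8 and 6.85 CPM treated in ein3eil1, against a range between 0.0459 and 0.285 CPM in the rhd6rsl1-type libraries. The amino acid transporter family members AT1G48640 and AT3G09330 had 5.9 and 6.89 CPM and 6.03 and 6.33 CPM in untreated Col-0. With ethylene these were 10.7 and 7.99 CPM and 3.81 and 4.93 CPM, the former higher and the latter lower, without overlap. AT3G09330 had no read in any rhd6rsl1 library.

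Of the kinase and signalling members, several were higher in ethylene-treated Col-0 and lower in ein3eil1. CPK19, a calcium-dependent protein kinase, had 9.44 and 8.01 CPM untreated and 10.5 and 9.79 CPM treated in Col-0 and 4.73 and 4.89 CPM untreated and 7.73 and 7.42 CPM treated in ein3eil1. The receptor-like kinase relative AT1G63600 had 6.45 and 7.5 CPM untreated and 15.7 and 13.7 CPM treated in Col-0 and 2.7 and 4.09 CPM untreated and 3.83 and 4.91 CPM treated in ein3eil1. The leucine-rich repeat kinase AT4G20450 had 5.63 and 8.27 CPM untreated and 16.4 and 14.8 CPM treated in Col-0 and 3.58 and 3.42 CPM untreated and 6.56 and 5.36 CPM treated in ein3eil1. Both receptor-type loci were higher in ethylene-treated Col-0 without overlap, at 211% and 225% of untreated. AT5G18910, a protein kinase, had 4.94 and 5.09 CPM untreated and 6.48 and 6.5 CPM treated in Col-0. AGD11, annotated as binding calcium and also named calmodulin-like 3, had 7.07 and 6.44 CPM untreated and 14.2 and 14.3 CPM treated in Col-0 and 3.52 and 3.22 CPM untreated and 5.39 and 5.39 CPM treated in ein3eil1, and no read in untreated rhd6rsl1. AT4G20160, annotated as a golgin family protein, had 6.62 and 6.61 CPM untreated and 13.6 and 12.5 CPM treated in Col-0 and 2.58 and 3.04 CPM untreated and 4.53 and 4.6 CPM treated in ein3eil1. For AGD11 and AT4G20160 every ein3eil1 library was below every Col-0 library. The same held for CPK19, AT1G63600, AT5G18910, AT5G01280, AT2G37370 and AT1G73860, but not for AT4G20450. AT5G01280, a basic proline-rich protein, and AT2G37370, annotated as similar to a centrosomal protein, were higher in treated Col-0: AT5G01280 had 8.13 and 8.88 CPM untreated and 11.6 and 11.3 CPM treated, and AT2G37370 5.78 and 6.49 CPM untreated and 8.6 and 8.52 CPM treated. AT1G73860, annotated with microtubule motor activity, overlapped between the treatments in Col-0, at 32.1 and 30.9 CPM untreated and 33.6 and 29.9 CPM with ethylene.

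Enzymes and other proteins outside the wall classes split by their response in Col-0. GSTU14 and GSTU28, tau-class glutathione transferases, were lower with ethylene: GSTU14 had 32.9 and 35 CPM untreated and 12.9 and 15.2 CPM treated, and GSTU28 30.2 and 29.1 CPM untreated and 17.6 and 20.0 CPM treated. In ein3eil1 neither was low, with 33.1 and 38.7 CPM untreated and 33 and 31.8 CPM treated for GSTU14 and 30.5 and 24.6 CPM untreated and 34.3 and 27.9 CPM treated for GSTU28. GSTU14 was without a read in ethylene-treated rhd6rsl1, whereas GSTU28 had 1.13 and 0.828 CPM there. CYP94D1, a cytochrome P450, was higher with ethylene, with 6.47 and 8.24 CPM untreated and 20.5 and 18.9 CPM treated in Col-0 and 3.88 and 3.87 CPM untreated and 6.51 and 5.81 CPM treated in ein3eil1. The lipid-transport family protein AT1G30990 was lower in treated Col-0, at 8.94 and 7.91 CPM untreated and 6.79 and 4.93 CPM treated, and had 8.34 and 7.02 CPM untreated and 9.97 and 8.8 CPM treated in ein3eil1. CYP94D1 and AT1G30990 thus differed in opposite directions in Col-0. CCP3, of the serpin family of protease inhibitors, had 23.3 and 25.2 CPM untreated and 38.1 and 33.1 CPM treated in Col-0 and 9.83 and 9.58 CPM untreated and 14.1 and 13.3 CPM treated in ein3eil1. LOG2, of the LONELY GUY family of cytokinin-activating enzymes, had 9.56 and 9.72 CPM untreated and 14.6 and 13.7 CPM treated in Col-0 and 2.58 and 3.98 CPM untreated and 6.4 and 5.33 CPM treated in ein3eil1. CCP3 and LOG2 were below every Col-0 library in each ein3eil1 library.

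The remaining loci encode proteins of varied or little known function. AT4G22217, a defensin-like protein, had 5.41 and 5.75 CPM untreated and 3.09 and 3.92 CPM treated in Col-0, 6.98 and 6.67 CPM untreated and 5.93 and 6.09 CPM treated in ein3eil1, and no read in any of the 8 rhd6rsl1-type libraries. No other member lacked reads in all 8. AT4G14280, an ARM repeat protein, had 5.44 and 5.88 CPM untreated and 7.12 and 7.33 CPM treated in Col-0 and no read in the quadruple mutant. The lectin AT5G49870 had 8.4 and 8.7 CPM untreated and 12 and 11.8 CPM treated in Col-0 and 7.67 and 7.93 CPM untreated and 15.5 and 12.6 CPM treated in ein3eil1, where ethylene-treated roots had the highest level of all groups. The uncharacterised AT5G21080 had 10.4 and 11 CPM untreated and 13.2 and 14.1 CPM treated in Col-0. The NB-ARC protein AT1G52660, the acyltransferase family protein AT1G34520 and CID5, named for a CTC-interacting domain, had 14.9 and 15.3 CPM, 5.51 and 5.93 CPM and 8.92 and 9.36 CPM in untreated Col-0. Each of these 3 overlapped between treated and untreated Col-0. Of the pseudogenes, AT2G06967 was the most variable, with 6.32 and 11.1 CPM untreated and 25.9 and 19.3 CPM treated in Col-0 and 3.46 and 3.6 CPM untreated and 9.14 and 7.78 CPM treated in ein3eil1. AT2G29010, derived from a leucine-rich repeat kinase, had 10.2 and 8.8 CPM untreated and 7.07 and 6.07 CPM treated in Col-0, and AT5G36270, derived from a dehydroascorbate reductase, 7.71 and 8.29 CPM untreated and 11 and 9.25 CPM treated. AT1G48640, AT1G52660, TBL21 and AT5G21080 overlap a gene on the opposite strand, and whether counting used strand is not given, so part of their reads may belong to those genes.

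In Col-0, 26 of the 40 members were higher in both ethylene libraries than in both untreated ones (background 37.1% of tested loci) and 10 were lower (background 28.7%). The rule read untreated Col-0, and these values are a description without a test. The 10 lower members were RSL2, GSTU14, GSTU28, RHS6, RHS16, TBL21, AT1G30990, AT2G29010, AT3G09330 and AT4G22217. The same kind of count put 36 of 40 below untreated Col-0 in untreated ein3eil1 (background 23.7%) and 1, AT4G22217, above it (background 28.0%). In rhd6rsl1, 21 members were higher with ethylene in both libraries (background 38.3%) and 4, GSTU14, AT1G30990, AT1G61080 and AT5G21080, were lower (background 32.7%). The rule also read both rhd6rsl1 groups and held them low, so these counts too are a description without a test. The background loci were not chosen in this way. Some values lay near the read floor: in rhd6rsl1 AT1G61080 had 0.0489 and 0.0512 CPM untreated and no read with ethylene. These comparisons share libraries.

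The comparison of the quadruple mutant with ein3eil1 asks whether the loci also depend on RHD6/RSL1 where EIN3/EIL1 is missing, and it uses none of the libraries that chose the members. All 40 members were called lower in the quadruple mutant (edgeR quasi-likelihood test averaged over both treatments, adjusted p below 0.05), against a background of 10.8% of tested loci. In 39 of 40 every quadruple mutant library was below every ein3eil1 library, as for 7.52% of tested loci. The exception was XTH26, which reached 1.08 CPM in replicate 1 of the ethylene-treated quadruple mutant. Summed over the 8 endodermis markers, the quadruple mutant had 561 and 586 CPM untreated and 732 and 746 CPM with ethylene, all above the 415 to 508 CPM of ein3eil1, and the part of this in the result was not tested. Each genotype has a treatment in each file-code set here, so a constant set effect cancels. The fitted log2 fold changes had a median of -7.14, also with loci without reads at their bound, against 0.00328 over all tested loci. Fits of loci without reads in a group depend on the prior count, so the size is given from pooled reads, where ein3eil1 had a median of 129-fold and a range of 8.68-fold (XTH26) to 452-fold (ABCA3) the level of the quadruple mutant. For ABCA3, which had 2 reads in the quadruple mutant, the 95% interval was 125 to 3737.

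Named members show the size. RSL2 had a log2 fold change of -8.48 ± 0.18 (SE, adjusted p = 1.5e-15), EXT10 -8.15 ± 0.56 (adjusted p = 5.7e-09) and RHS16 -7.10 ± 0.14 (adjusted p = 7.7e-16), with 4 libraries on either side. AT2G37370 changed by -3.40 ± 0.32 (adjusted p = 4.0e-07). AT4G22217 and AT4G14280 had no read in the 4 quadruple mutant libraries and were at least 331-fold and at least 249-fold higher in ein3eil1, against 3 reads over the group. CPK19, LOG2 and AT5G18910 had 3 reads each, for ratios of 318 (109 to 1546), 238 (81.0 to 1155) and 172 (58.5 to 837).

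The comparison of ein3eil1 with Col-0, both with ethylene and of the same file-code set, asks how far the loci depend on EIN3/EIL1 where RHD6/RSL1 is present. Of the 40 members, 20 were called lower in ein3eil1 (background 11.2%) and 7 higher (background 14.1%), and 13 were not called. The share lower was 50% and the share higher, 17.5%, was close to its background. The members' median log2 fold change was -0.66, against -0.00320 over all tested loci. The endodermis markers summed to 404 and 369 CPM in Col-0 and 478 and 415 CPM in ein3eil1 here, without overlap. The shoot genes summed to 687 and 107 CPM in Col-0, replicate 1 first, and to 103 and 111 CPM in ein3eil1. The part of either set in the result was not tested.

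**Figure D4:**
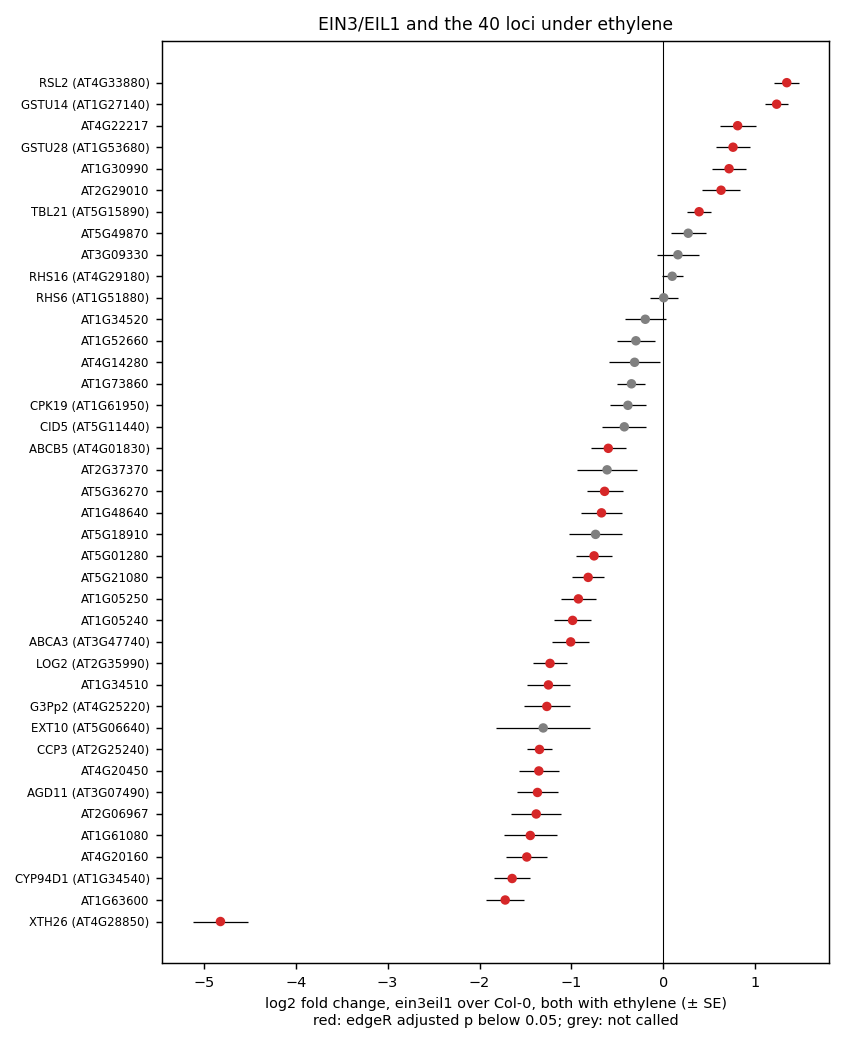
Log2 fold change of each of the 40 loci, ein3eil1 over Col-0 with ethylene in both, with SE from the edgeR fit; red points passed the adjusted p threshold of 0.05 and grey ones did not. XTH26 lies at -4.82, the other called decreases between -1.72 and -0.60, and RSL2 and GSTU14 have the highest increases at 1.34 and 1.23.

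XTH26 fell by most, with a log2 fold change of -4.82 ± 0.30 (adjusted p = 9.7e-09), followed by AT1G63600 at -1.72 ± 0.21 (adjusted p = 6.7e-06) and CYP94D1 at -1.65 ± 0.19 (adjusted p = 6.6e-06). The 3 peroxidases, G3Pp2, ABCA3, ABCB5, AT1G48640, CCP3, LOG2, AGD11 and AT4G20160 were also among the 20 lower members. RSL2 was higher, by 1.34 ± 0.13 (adjusted p = 6.6e-07), as was GSTU14, by 1.23 ± 0.13 (adjusted p = 1.4e-06). For these loci ethylene-treated ein3eil1 lay near untreated Col-0, at 82.4% and 95.3%, while ethylene-treated Col-0 was at 33.3% and 41.4%. GSTU28, AT1G30990, AT2G29010, TBL21 and AT4G22217 were the other higher members. EXT10 differed by -1.31 ± 0.51 but was not called (adjusted p = 0.072). In DESeq2 the 3 peroxidases, G3Pp2 and GSTU28 lost the call. In edgeR it was kept by 18 of the 27 whichever library was left out. It was lost without replicate 1 of ethylene-treated Col-0 by ABCB5, AT1G48640, AT2G29010, AT4G22217, TBL21 and AT5G36270. It was lost without replicate 1 of ethylene-treated ein3eil1 by AT1G30990, AT1G48640, AT2G29010, GSTU28, AT5G01280, TBL21 and AT5G36270. AT1G30990, AT2G29010 and TBL21 lost it without replicate 2 of ethylene-treated Col-0, and ABCB5, AT1G48640, AT2G29010, TBL21 and AT5G36270 without replicate 2 of ethylene-treated ein3eil1. Leaving out replicate 1 of untreated Col-0 ended it for AT2G29010 and TBL21, and leaving out either untreated ein3eil1 library for AT1G48640.

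Within ein3eil1, 1 of 40 members was called higher with ethylene (background 0.260%) and 0 lower (background 0.363%) in the edgeR test, while 17 had an unadjusted p below 0.05 in either direction (background 14.4%). The called member was XTH26, with a log2 fold change of 2.73 ± 0.44 (adjusted p = 0.013, higher in 2 of 2 libraries), and it lost the call in DESeq2. The count was 0 when any of the 4 ein3eil1 libraries was left out, 4 without either ethylene-treated quadruple mutant library, and 2 without either untreated quadruple mutant library or either ethylene-treated rhd6rsl1 library. The members' median change was 0.43, against 0.00524 over all tested loci, and 36 of 40 were above 0. Fitted on the ein3eil1 libraries alone, 17 members were called, all higher, against a background of 2.87%. Without a low-count filter 16 were called, all higher, against a background of 1.55%, and DESeq2 called 5, all higher, against 1.09%. Treatment and file code cannot be told apart here.

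In the quadruple mutant, 9 of 40 members were called higher with ethylene (background 11.5%) and 0 lower (background 12.4%) by edgeR, with 17 at an unadjusted p below 0.05 in either direction (background 35.7%). They were EXT10, XTH26, G3Pp2, AT1G34510, CYP94D1, GSTU14, AT1G30990, AT4G20160 and AT5G36270. Most members passed the low-count filter only through the groups where they were high, so these counts and the background shares are not a like comparison. CYP94D1 had 5 reads treated and 0 untreated, and GSTU14 had 12 and 3. Untreated levels were mostly near the read floor, which leaves little room for a call of lower. Without replicate 1 of the ethylene-treated quadruple mutant 0 members were called, against 12 without its replicate 2, and AT1G34510 turned to a fitted log2 fold change of -3.04, with no read left in the treated group. EXT10 had 16.4 and 0.438 CPM in the ethylene-treated replicates, G3Pp2 1.16 and 0 CPM, XTH26 1.08 and 0.0585 CPM and AT1G34510 0.989 and 0 CPM. In these 4 only the first replicate was high. AT1G30990 had 0.436 and 0.468 CPM in the treated and 0.211 and 0.115 CPM in the untreated replicates, and AT4G20160 0.233 and 0.175 against 0.0468 and 0.0229 CPM. In both of these loci the treated replicates were alike and above the untreated ones, and the call was lost without either treated replicate. Over all 40 members, 17 were above both untreated libraries in both treated ones (background 31.1%) and 2, LOG2 and RHS16, below (background 27.1%). Some of these differences rest on few reads: LOG2 had 3 reads untreated and 0 treated, and RSL2, among the higher, 4 and 6. Summed over the 40 members, replicate 1 had 30.2 CPM against 5.26 CPM in replicate 2 and 4.1 and 5.19 CPM in the untreated replicates. That library also had the highest sum of the shoot markers, 1174 CPM against 132 CPM in replicate 2, and 219 against 30.7 CPM summed over the 100 restored loci. The endodermis sums were higher in both treated replicates, at 732 and 746 CPM against 561 and 586 CPM. The part of these markers in the result was not tested. Without replicate 1 of the untreated quadruple mutant 4 members were called, 1 of them lower, and without its replicate 2 only 1.

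**Figure D5:**
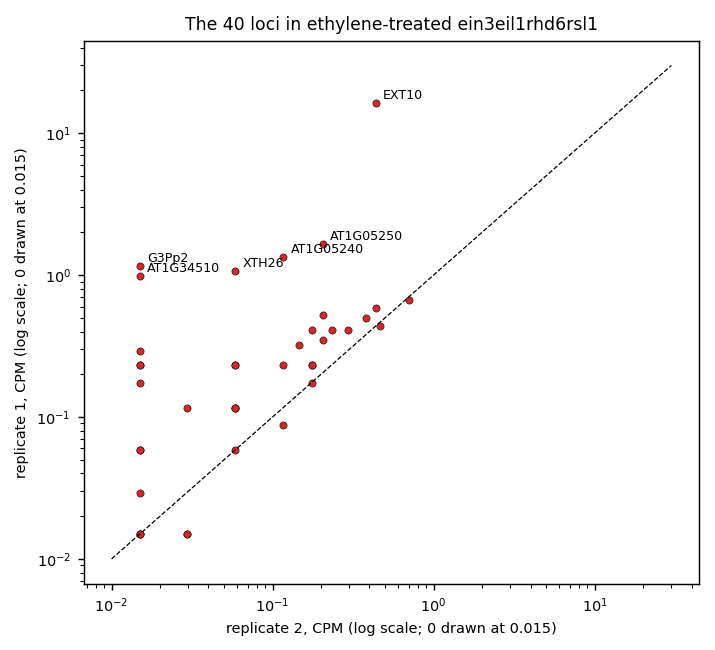
Level of the 40 loci in replicate 2 (horizontal axis) and replicate 1 (vertical axis) of the ethylene-treated quadruple mutant, in CPM on log axes, with 0 drawn at 0.015. EXT10 lies at 16.4 CPM in replicate 1 and 0.438 CPM in replicate 2, and G3Pp2 and AT1G34510 have no read in replicate 2.

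The 40 members are set beside the 100 loci that stood at 5% or more in ethylene-treated rhd6rsl1, called restored here, by counts alone. All 100 restored loci were called lower in the quadruple mutant than in ein3eil1, as were all 40 members. In ethylene-treated ein3eil1 against Col-0, 91 of 100 restored loci were called lower and 0 higher, against 20 and 7 of 40 members. Restored loci stood at a median of 167% of untreated Col-0 in ethylene-treated Col-0, 15.4% in ethylene-treated rhd6rsl1 and 1.22% in the ethylene-treated quadruple mutant, and the members at 133%, 1.96% and 1.02%. The replicates of the ethylene-treated quadruple mutant differed, at 1.70% and 0.207% for restored loci and 1.58% and 0.415% for members. Which group a locus joined was set by the ethylene-treated rhd6rsl1 values, and the difference between the groups was not tested.

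Among lists of known genes, 1 of 9 root hair bHLH factors was a member and 2 were restored. Of 18 RHS genes, 3 were members and 11 restored. Another RHS gene, AT1G05990, missed the 5 CPM limit with 4.78 CPM in untreated Col-0. In rhd6rsl1 it stood at 0% of that level untreated and 3.61% with ethylene. Of 28 genes of hair growth and its wall, 1 was a member (XTH26) and 14 were restored. None of 10 epidermal patterning genes was either. In the quadruple mutant against ein3eil1, all 18 RHS genes were called lower, 23 of 28 hair growth genes and 7 of 9 bHLH factors, with 1 of the last called higher. With ethylene, ein3eil1 was called lower than Col-0 for 13 RHS genes, 18 hair growth genes and 3 bHLH factors, and higher for 4 bHLH factors. The patterning genes had 4 lower and 2 higher in the former comparison and 6 higher in the latter. Over all tested loci 10.8% were called lower and 11.7% higher in the former, and 11.2% lower and 14.1% higher in the latter. Median log2 fold changes in the former were -7.03 for RHS genes, -4.49 for hair growth genes, -3.63 for bHLH factors and -0.31 for patterning genes.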

How the data were processed

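Root RNA of 16 libraries was sequenced as paired 100-base reads after TruSeq mRNA preparation, per the labels' design text. Per the submitters' processing notes, BWA 0.7.7 and the build TAIR10 were used. The deposited files hold a read count and an RPKM value for each of 39640 transcript models, per the file headers. The counting tool, its strand setting and its treatment of shared reads are not named in the labels or headers used here. The authors' RPKM values were not used for levels. The authors' counts were summed to 33518 loci, and CPM is count over the library total.

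Tests used edgeR 4.0.16 in R 4.3.3: filterByExpr (22304 loci left, all 40 members among them), TMM scaling, 8 group means and the quasi-likelihood F test, with Benjamini-Hochberg adjustment over all loci tested and a call at an adjusted p below 0.05. Standard errors were taken as the fitted log2 change divided by the root of the F statistic. The common coefficient of biological variation was 0.0938. The script was tested on simulated data. DESeq2 1.42.0, other scaling, no low-count filter, fits on fewer groups, a replicate block and leaving out each library were alternatives. Leaving out both libraries with high shoot markers was added after seeing the data. A locus without reads was set against 3 reads over the group, and ratios of 1 to 3 reads have 95% intervals.

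The members, lists and naming rule were chosen with earlier results of these data known. Every member is accounted for, and per-library values are due for listed genes, the 3 highest per function class, the 5 largest called changes per comparison and direction, the 5 highest in the quadruple mutant, the 5 highest and lowest ratios in Col-0 and loci next to a limit, which gave 34 of 40. Function classes come from RefSeq product names. TAIR10.1, from which names, neighbours and promoter windows were taken, is not the named build of the files, so no coordinates are printed. Paralogs were sought with blastn among RefSeq transcripts. Replicate numbers do not pair the samples, since the deviations of same-numbered libraries correlated at 0.033, -0.014 and -0.012 in the 3 single-step comparisons and at -0.08 to 0.21 over all pairs of groups. Columns of file codes were used only to describe sets.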

Additional observations from a re-analysis of the deposited data

How the results depend on the processing

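The 40 decreases in the quadruple mutant against ein3eil1 were kept in every alternative. For ein3eil1 against Col-0, where 27 members were called, leaving out 1 library gave 20 to 30. Of the single-gene results of that comparison 558 kept their call and 36 lost it over all alternatives. DESeq2 called 6 members higher and 17 lower in total. For ethylene in ein3eil1, where 1 member was called, DESeq2 gave 5, no filter 16, the ein3eil1 groups alone 17 and the fit without both libraries with high shoot markers 5, all higher, and leaving out 1 library gave 0 to 4. For ethylene in the quadruple mutant, where 9 were called, no filter gave 14, its groups alone 1 (only 10 members were tested there), the fit without both libraries with high shoot markers 0, and leaving out 1 library 0 to 12. AT1G34510 reversed in that comparison to a log2 fold change of -3.04 without replicate 1 of the ethylene-treated quadruple mutant, alone or with the Col-0 library, and without 1 library ran from -3.04 to 7.24. The cause was not tested. With replicate number as a block 40, 27, 1 and 8 members were called in the 4 comparisons, in the order given. The number of members was 18 at a limit of 2%, 67 at 10%, 63 from 2 CPM and 16 from 10 CPM, and 36 to 45 without 1 library. With 2 libraries a group, and with 5 to 14 members without a read in each rhd6rsl1-type library, depth limits the calls on low levels.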
